A study of Mus musculus with 6 samples.

Results

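Complement and coagulation factors are plasma proteins that the liver secretes, and 40 of their genes were followed in liver mRNA of mice given a herbal extract. The 40 symbols were listed by function: components of complement, clotting factors, and inhibitors together with genes of fibrinolysis. Of the 40, 39 had a row among the 23474 gene identifiers of the deposited table. Klkb1, which encodes plasma prekallikrein, was not analysed here. The table holds 3 liver libraries of mice whose high-fat diet carried 1.5% by weight of an extract of Bangpungtongseong-san (BT) and 3 of mice on the high-fat diet alone (HFD). Bangpungtongseong-san is a traditional mixture of medicinal herbs. All mice were C57BL/6J males that ate a high-fat diet for 12 weeks from 5 weeks of age and were 17 weeks old, so no library shows the liver without that diet. Nothing in the labels tells whether a library holds 1 animal, so each p-value measures the spread between libraries only.

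Complement is a chain of proteases. The classical and lectin pathways begin when pattern-binding proteins switch on the proteases C1r, C1s and MASP, these cut C4 and C2, and the resulting enzyme cuts C3. The terminal proteins then assemble into a pore called the membrane attack complex. Coagulation is a second protease chain that ends in thrombin and fibrin, several of its enzymes need vitamin K-dependent carboxylation, and plasmin later dissolves the clot. Hepatocytes make most of these proteins, and part of them rise in the acute phase response.

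Expression is given as FPKM, the number of sequenced fragments scaled by transcript length and by library size. Judged from the smallest values, a library held roughly 13800000 to 15800000 fragments. Log2 changes are BT minus HFD on the log2(FPKM + 1) scale, and a gene was called when limma's adjusted p, corrected over the 10476 genes whose mean reached 1 FPKM, was under 0.05. Of these genes 1398 were called, 630 higher and 768 lower with BT (448 and 884 with median-of-ratios scaling, 614 and 557 with every library rescaled to the same sum). Liver identity was clear from its markers: Ttr, Apoa1, Apob, Serpina1a, Cps1 and Hnf4a together held 10100 to 10700 FPKM in BT and 12900 to 17200 FPKM in HFD libraries, ranges that do not overlap, and Alb is listed at 0 in HFD replicate 3 alone. The sum is mostly Apoa1 and Ttr. Gene by gene the changes were -0.76 (Ttr), -0.49 (Apoa1), -0.14 (Serpina1a), -0.06 (Hnf4a), 0.12 (Apob) and 0.58 (Cps1). In the sample descriptions the library codes carry one letter in all BT libraries and another in all HFD libraries, so diet and library set cannot be told apart.

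All 39 members passed the filter on low values, with means over the 6 libraries of 7.3 FPKM (Masp1) to 1538.3 FPKM (Fgb). Of the 39, 12 were called (30.8%, against 13.3% of all genes tested). Every member averaged more than 5 FPKM. With the filter set at 5 FPKM the same 12 were called. The fit then called 1368 of 6799 genes, 599 higher and 769 lower, a larger share than with the filter at 1 FPKM. Higher with BT were 11 of them (28.2%, against 6.01% of all genes tested), and 1 was lower (2.56%, against 7.33%). The median change of the members was 0.18, against 0.07 for all genes tested, and 29 of 39 changes were positive. All BT values lay above all HFD values in 17 members (43.6%, against 23.2% of all genes) and below them in 4 (10.3%, against 16.1%). By class, 7 of 16 complement components were called, 6 of them higher, 3 of 13 clotting and contact factors were higher, and 2 of 10 inhibitors and fibrinolytic genes were higher. Together the members held 1.56% to 1.64% of all FPKM in BT libraries and 1.27% to 1.46% in HFD libraries, and these ranges do not overlap. The lowest share was in HFD replicate 2, whose FPKM sum was the largest (930139). A single member, C3, averaged 1308 FPKM with BT and 812 FPKM with HFD, so the shares do not describe a shift of all members. In whole liver, fewer cells of a type and less RNA per cell cannot be told apart.

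Many of these calls were lost when 1 library was left out, whichever BT library it was. Without BT replicate 1 none of the 12 passed limma's test (adjusted p 0.0503 to 0.179). Of the 39 members 16 then had an unadjusted p under 0.05, against 18 with all libraries. Over all 10476 genes tested these numbers were 2445 and 3397. Without BT replicate 2, BT replicate 3, HFD replicate 2 and HFD replicate 3 there were 2, 4, 5 and 9 calls among the members, and without HFD replicate 1 there were 13. Calls over all genes fell as well, from 1398 to 173, 324 and 589 without BT replicates 1, 2 and 3. Without HFD replicates 1, 2 and 3 they numbered 1365, 621 and 1536. Median-of-ratios scaling called 5 members higher and 1 lower, and C1ra, C4bp, C6, C8a, F7 and Plg were lost (adjusted p 0.0586 to 0.134). In each of the 17 alternative fits the 12 called members kept the sign of their change. Their BT and HFD values did not overlap, so leaving out 1 library could not reverse a sign. Several other fits, such as those with another filter or without the variance trend, reuse the same change.

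**Figure D1:**
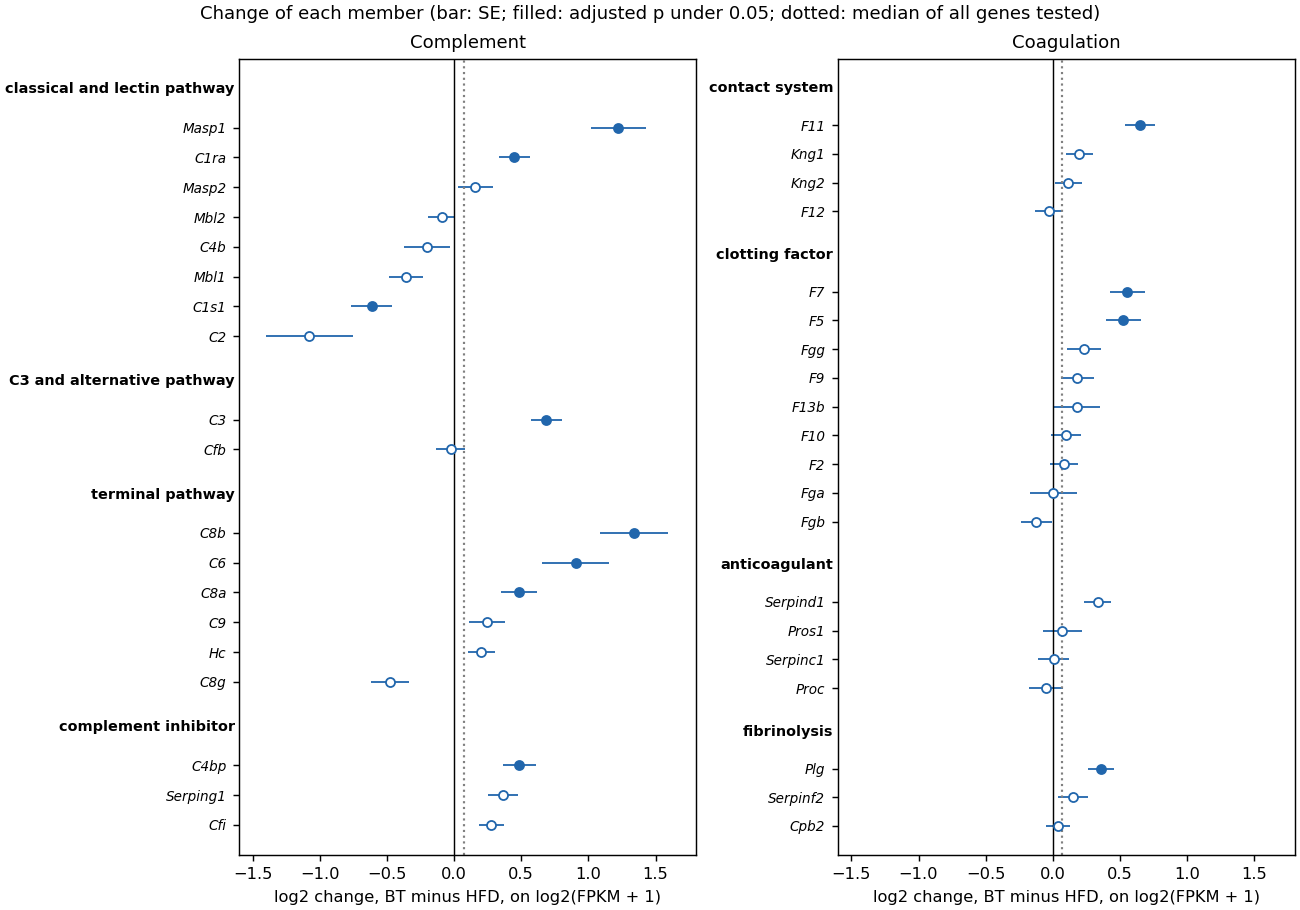
Log2 change (BT minus HFD, x axis) of the 39 members, grouped by role, with limma's SE as bars. Filled points are the 12 called genes, 11 to the right of 0 and C1s1 to the left, and the dotted line is the median of all genes tested (0.07).

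Promoter windows are shown for C3 and F11, members with low adjusted p, and for the neighbours C1ra and C1s1, which moved apart. They run from 250 bases before to 50 bases after the start and come from RefSeq (GRCm38.p6). RefSeq's start of C1ra lies 216 bases inside the gene as GENCODE gives it, so most of that window is within the GENCODE gene, while the other 3 starts are the same in both. Capitals mark matches on either strand to TTGCNNAA, a core read by C/EBP factors, or to CAAAGTNCA, a core read by HNF4A.
C3 (chr17:57228087-57228386, minus strand): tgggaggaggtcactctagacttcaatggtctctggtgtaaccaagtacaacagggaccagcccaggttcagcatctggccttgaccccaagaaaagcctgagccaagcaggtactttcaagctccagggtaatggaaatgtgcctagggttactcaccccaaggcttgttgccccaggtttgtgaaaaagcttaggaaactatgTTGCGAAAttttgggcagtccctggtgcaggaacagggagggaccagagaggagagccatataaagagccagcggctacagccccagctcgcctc
F11 (chr8:45261982-45262281, minus strand): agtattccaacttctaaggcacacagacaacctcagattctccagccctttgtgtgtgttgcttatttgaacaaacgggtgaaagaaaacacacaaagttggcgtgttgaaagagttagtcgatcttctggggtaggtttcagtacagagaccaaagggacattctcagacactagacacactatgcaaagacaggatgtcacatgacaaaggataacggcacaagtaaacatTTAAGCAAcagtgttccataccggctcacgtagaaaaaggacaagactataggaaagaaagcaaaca
C1ra (chr6:124512371-124512670, plus strand): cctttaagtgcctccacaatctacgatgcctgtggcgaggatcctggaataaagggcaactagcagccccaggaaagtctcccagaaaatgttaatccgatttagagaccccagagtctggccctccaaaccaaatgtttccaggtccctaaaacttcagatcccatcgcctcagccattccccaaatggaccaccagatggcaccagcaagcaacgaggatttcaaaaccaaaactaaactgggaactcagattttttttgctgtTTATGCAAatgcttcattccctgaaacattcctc
C1s1 (chr6:124542310-124542609, minus strand): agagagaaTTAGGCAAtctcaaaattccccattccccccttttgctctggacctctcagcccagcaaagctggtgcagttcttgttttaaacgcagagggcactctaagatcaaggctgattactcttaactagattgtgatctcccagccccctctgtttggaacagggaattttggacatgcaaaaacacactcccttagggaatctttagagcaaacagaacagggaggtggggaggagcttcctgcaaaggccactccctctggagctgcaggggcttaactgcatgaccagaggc

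C3, F11, C1ra and C1s1 held 1 C/EBP core each. Of the 39 members 30 had a window. TTGCNNAA was present in 11 of the 30 (36.7%), against 10.8% of 32851 windows of the same length, and CAAAGTNCA in 2 (6.67%, against 1.41%). Each member gave 1 window, while the 32851 were taken without a choice of 1 per gene or of liver genes, so the sets are unlike. Of the 9 members called higher that had a window, 3 held TTGCNNAA and none held CAAAGTNCA. These 3 are C3, F11 and C1ra, whose windows are shown. The windows of C4bp, C6, C8a, C8b, F5 and F7, which are not shown, held neither. In the windows shown no match overlapped another. These are matches of letters and not measured binding.

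Among genes of proteins that start the classical and lectin pathways, Masp1 and C1ra rose, C1s1 fell, and the other 5 of 8 did not pass. Masp1 encodes a protease of the lectin pathway (ENSMUSG00000022887, chromosome 16, 23449417 to 23520815). It stood at 10.17, 10.47 and 10.72 FPKM in the BT libraries, against 4.91, 2.42 and 4.84 FPKM in the HFD libraries. The lowest BT value was thus above the highest HFD value, and the BT libraries were almost alike. The log2 change was 1.22 ± 0.20 (SE, adjusted p = 0.0127), a 2.33-fold higher level on that scale. It was the least abundant member, and the call was lost without BT replicate 1 (adjusted p = 0.0533). Its partner Masp2, another protease of that pathway, differed by 0.16 (adjusted p = 0.421), and exons of Tardbp cover 54.9% of its exon bases.

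C1ra and C1s1 encode the paired proteases C1r and C1s of the first complement component. C1ra had 79.3, 83.3 and 89.2 FPKM with BT, against 69.9, 59.5 and 54.9 FPKM with HFD, a change of 0.45 ± 0.12 (SE, adjusted p = 0.0402). C1s1 had 34.9, 35.4 and 38.2 FPKM with BT, against 47.6, 71.0 and 51.6 FPKM with HFD, a change of -0.61 ± 0.15 (SE, adjusted p = 0.0343). In neither gene do the diets overlap, and BT is the higher one in C1ra and the lower one in C1s1. C1rb and C1s2 are close paralogs of these genes. C1s2 was listed at 0 to 0.0464 FPKM over all libraries, and C1rb was not analysed here, so the level of C1ra is uncertain. The ratio of C1ra to C1s1 within a library was 2.27, 2.35 and 2.33 with BT and 1.47, 0.837 and 1.06 with HFD, and its separation follows from that of the genes. In GENCODE M21 (mouse build GRCm38, which may not be the authors' build) the genes lie 6.9 kb apart on chromosome 6, C1ra on the plus strand at 124512405 to 124523443 and C1s1 (ENSMUSG00000038521) on the minus strand at 124530345 to 124542359. Exons of Gm16567 cover 18.4% of the exon bases of C1s1. Leaving out any BT library removed the call of C1s1 (highest adjusted p 0.121), and C1ra was called in only 1 of the 6 fits that left out a library, the one without HFD replicate 1 (highest adjusted p 0.116).

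C2, which supplies the protease of the C3-cutting enzyme, had 65.8, 75.2 and 82.0 FPKM with BT and 115, 293 and 115 FPKM with HFD. No BT value reached the HFD range, but HFD replicate 2 stood far above its group, and the difference of -1.08 ± 0.32 missed the threshold (adjusted p = 0.0589). C2 was called without HFD replicate 1 and without HFD replicate 2. Exons of Gm20547 and Zbtb12 cover 46.9% of its exon bases. The mannose-binding lectins Mbl1 and Mbl2, which recognise microbial sugars, differed by -0.36 (adjusted p = 0.089) and -0.09 (adjusted p = 0.54). Mbl1 had 157, 185 and 165 FPKM with BT and 232, 235 and 186 FPKM with HFD, so the diets were barely separate, and it passed without HFD replicate 3. C4b, the source of the C4 fragment that anchors the enzyme, overlapped between diets (215, 210 and 273 FPKM with BT, 215, 328 and 266 FPKM with HFD).

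C3, on which all activation routes converge, was the most abundant member called (ENSMUSG00000024164, chromosome 17, 57203970 to 57228136). It stood at 1194, 1421 and 1311 FPKM with BT, against 844, 761 and 830 FPKM with HFD. The lowest BT library was well above the highest HFD library. The change was 0.69 ± 0.12 (SE, adjusted p = 0.0129), a 1.61-fold higher level, and the call was lost without BT replicate 1 or BT replicate 2 (highest adjusted p 0.0582). Cfb, the alternative-pathway protease that joins C3 in its own amplifying enzyme, differed by -0.03 ± 0.11 (adjusted p = 0.89), and its FPKM ran from 319 to 370 with BT and from 326 to 376 with HFD. Cfb shares 79.5% of its exon bases with the gene model Gm20547, which also covers part of C2, and lies 85 bases from C2.

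In the terminal pathway C8b, C8a and C6 rose, while Hc, C9 and C8g did not pass. C8b encodes the beta chain of C8, a subunit of the membrane attack pore (ENSMUSG00000029656, chromosome 4, 104766317 to 104804548). It had 64.0, 55.8 and 44.9 FPKM with BT, against 31.7, 19.9 and 14.4 FPKM with HFD. Every BT value exceeded every HFD value, and within each diet the range was wide. Its change of 1.34 ± 0.25 (SE, adjusted p = 0.0168), or 2.53-fold, was the highest among the members, and it missed the threshold without BT replicate 1, BT replicate 2 or HFD replicate 2 (highest adjusted p 0.0706). C8a, the gene of the alpha chain, lies 11.1 kb from C8b on the opposite strand. It had 127, 117 and 111 FPKM with BT, against 92.3, 93.5 and 69.2 FPKM with HFD (0.48 ± 0.14, adjusted p = 0.0495). C8g, the gene of the third chain, lies on chromosome 2 and had 248, 279 and 221 FPKM with BT, against 352, 404 and 293 FPKM with HFD. Its BT values were all below its HFD values, and the difference of -0.48 ± 0.14 did not pass (adjusted p = 0.0595), except without HFD replicate 3.

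The proportions of the C8 chains were compared within each library. C8b mRNA was 0.258, 0.2 and 0.203 of C8g mRNA with BT and 0.09, 0.0494 and 0.0491 of it with HFD, per length. C8a was 0.513, 0.417 and 0.502 of C8g with BT and 0.262, 0.232 and 0.236 of it with HFD. These ratios had to separate, since C8a and C8b were all higher and C8g all lower with BT, so they are given as values with no test. The ratio of C8b to C8a was not fixed in that way, and it was 0.503, 0.479 and 0.404 with BT and 0.343, 0.213 and 0.208 with HFD, without overlap (exact two-sided permutation p = 0.1, the smallest that 3 against 3 allows). C8g was the most abundant chain in all 6 libraries. C6, which binds the activated C5 fragment, had 43.2, 36.5 and 28.7 FPKM with BT and 28.3, 15.8 and 14.2 FPKM with HFD (0.90 ± 0.25, adjusted p = 0.0468). Its groups touch, with BT replicate 3 only slightly above HFD replicate 1. C6 and C8a were called in only 1 of the 6 fits that left out a library, the one without HFD replicate 1 (highest adjusted p 0.153 for C6 and 0.17 for C8a). Hc, the mouse gene of C5, and C9, the subunit that lines the pore, differed by 0.20 (adjusted p = 0.194) and 0.24 (adjusted p = 0.241), Hc without overlap and C9 with it.

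**Figure D2:**
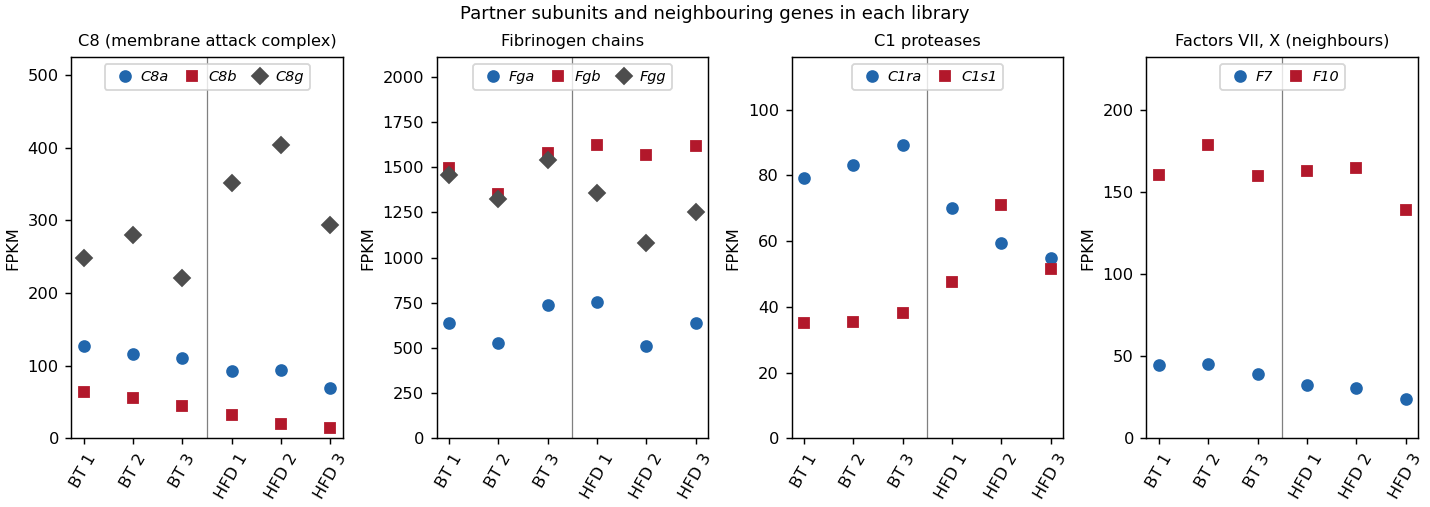
FPKM (y axis) in each library (x axis, BT left, HFD right) for the C8 chains, the fibrinogen chains, the C1 proteases and the neighbouring genes F7 and F10. C8a and C8b sit higher and C8g lower in BT than in HFD libraries, and Fga, Fgb and Fgg each overlap between the diets, although Fgg lies closer to Fgb in every BT library.

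In all 3 complement inhibitors every BT value lay above every HFD value, as was so in 23.2% of all genes tested. Of the 3, only C4bp passed. C4bp, which inactivates the C4-containing enzyme, had 302, 278 and 301 FPKM with BT and 233, 178 and 221 FPKM with HFD (0.48 ± 0.12, adjusted p = 0.0389). Serping1, the gene of C1 inhibitor, which blocks C1r, C1s and MASP as well as kallikrein and factor XIIa, had 355, 360 and 420 FPKM with BT and 299, 306 and 275 FPKM with HFD (0.37 ± 0.11, adjusted p = 0.059). Cfi, the protease that degrades C3b and C4b, had 225, 216 and 228 FPKM with BT and 189, 174 and 189 FPKM with HFD (0.28 ± 0.09, adjusted p = 0.0822). Neither Serping1 nor Cfi passed in any fit that left out a library. C4bp was called in only 1 of the 6 fits that left out a library, the one without HFD replicate 1 (highest adjusted p 0.14).

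In the contact system, which starts clotting on surfaces and releases bradykinin, F11 rose and the other 3 members tested did not pass. F11 encodes factor XI (ENSMUSG00000031645, chromosome 8, 45241174 to 45262031). It had 28.4, 22.9 and 23.6 FPKM with BT and 16.3, 15.2 and 14.97 FPKM with HFD. The HFD libraries were tightly grouped, and all lay below the BT libraries. The change was 0.65 ± 0.11 (SE, adjusted p = 0.014), or 1.57-fold, and only the fit without BT replicate 1 removed the call (adjusted p = 0.0663). F12, the factor XII gene that acts just before it, differed by -0.03 (adjusted p = 0.861). The kininogen genes Kng1 and Kng2, close paralogs whose products carry bradykinin, differed by 0.20 (adjusted p = 0.217) and 0.12 (adjusted p = 0.456), with all BT values above all HFD values in each. In Kng2 the groups nearly touched, with a lowest BT value of 146.8 FPKM and a highest HFD value of 146.4 FPKM.

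Of 9 genes for the later clotting factors 2 rose, F7 and F5. F7, which starts clotting together with tissue factor, had 44.7, 45.2 and 39.3 FPKM with BT and 32.7, 30.6 and 24.2 FPKM with HFD (0.56 ± 0.13, adjusted p = 0.0316). F5, whose product helps activated factor X make thrombin, had 73.2, 73.8 and 79.4 FPKM with BT and 50.8, 44.8 and 62.3 FPKM with HFD (0.52 ± 0.13, adjusted p = 0.0366). In both genes the groups were separate. F7 missed the threshold without any of the BT libraries and without HFD replicate 2 (highest adjusted p 0.121) and with median-of-ratios scaling (adjusted p = 0.0732), and F5 passed only without HFD replicate 3 (highest adjusted p 0.115).

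The most abundant clotting genes were not called. F2, the prothrombin gene, averaged 816 ± 29.0 FPKM with BT and 771 ± 35.8 FPKM with HFD (SD, n = 3 each, adjusted p = 0.602). The fibrinogen chains form a cluster on chromosome 3. Fga had 638, 528 and 737 FPKM with BT and 754, 512 and 637 FPKM with HFD. Fgb had 1494, 1351 and 1579 FPKM with BT and 1623, 1566 and 1617 FPKM with HFD. Fgg had 1459, 1323 and 1540 FPKM with BT and 1356, 1082 and 1251 FPKM with HFD. All 3 overlapped between the diets, with changes of 0.0044, -0.12 and 0.23 (adjusted p = 0.989, 0.478 and 0.243). Within a library Fgg was 0.977, 0.979 and 0.975 of Fgb with BT and 0.835, 0.691 and 0.774 of it with HFD, without overlap (exact two-sided permutation p = 0.1, the smallest possible). The ratio of Fga to Fgb overlapped (exact two-sided permutation p = 0.6). F10, whose enzyme makes thrombin, differed by 0.10 ± 0.11 and lies 1.5 kb from F7. F9, the factor deficient in haemophilia B, and F13b, the carrier subunit of the fibrin-linking enzyme, each differed by 0.18 (adjusted p = 0.332 and 0.499).

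None of the 4 anticoagulant genes was called by limma. Serpind1, the gene of heparin cofactor II, a thrombin inhibitor, had 182, 174 and 197 FPKM with BT and 156, 139 and 142 FPKM with HFD. Its groups did not overlap, the difference was 0.34 ± 0.10 (adjusted p = 0.059, unadjusted p = 0.00955), and it passed without HFD replicate 1. Serpinc1 (antithrombin), Proc (protein C) and Pros1 (its cofactor protein S) differed by 0.0069, -0.05 and 0.07 (adjusted p 0.761 to 0.972), and none had an unadjusted p under 0.05. Serpinc1 stood at 831 ± 39.9 FPKM with BT and 829 ± 78.8 FPKM with HFD (SD, n = 3 each), with 34.4% of its exon bases covered by Zbtb37. In fibrinolysis Plg rose. Plg, the gene of plasminogen, had 647, 619 and 623 FPKM with BT and 518, 480 and 475 FPKM with HFD (0.36 ± 0.10, adjusted p = 0.0471), groups that lay far apart beside their spread. Exons of Slc22a3 cover 11.3% of its exon bases, and it was called in only 1 of the 6 fits that left out a library, the one without HFD replicate 1 (highest adjusted p 0.179). Serpinf2 (antiplasmin) and Cpb2 (which slows clot breakdown) differed by 0.15 (adjusted p = 0.366) and 0.04 (adjusted p = 0.798).

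**Figure D3:**
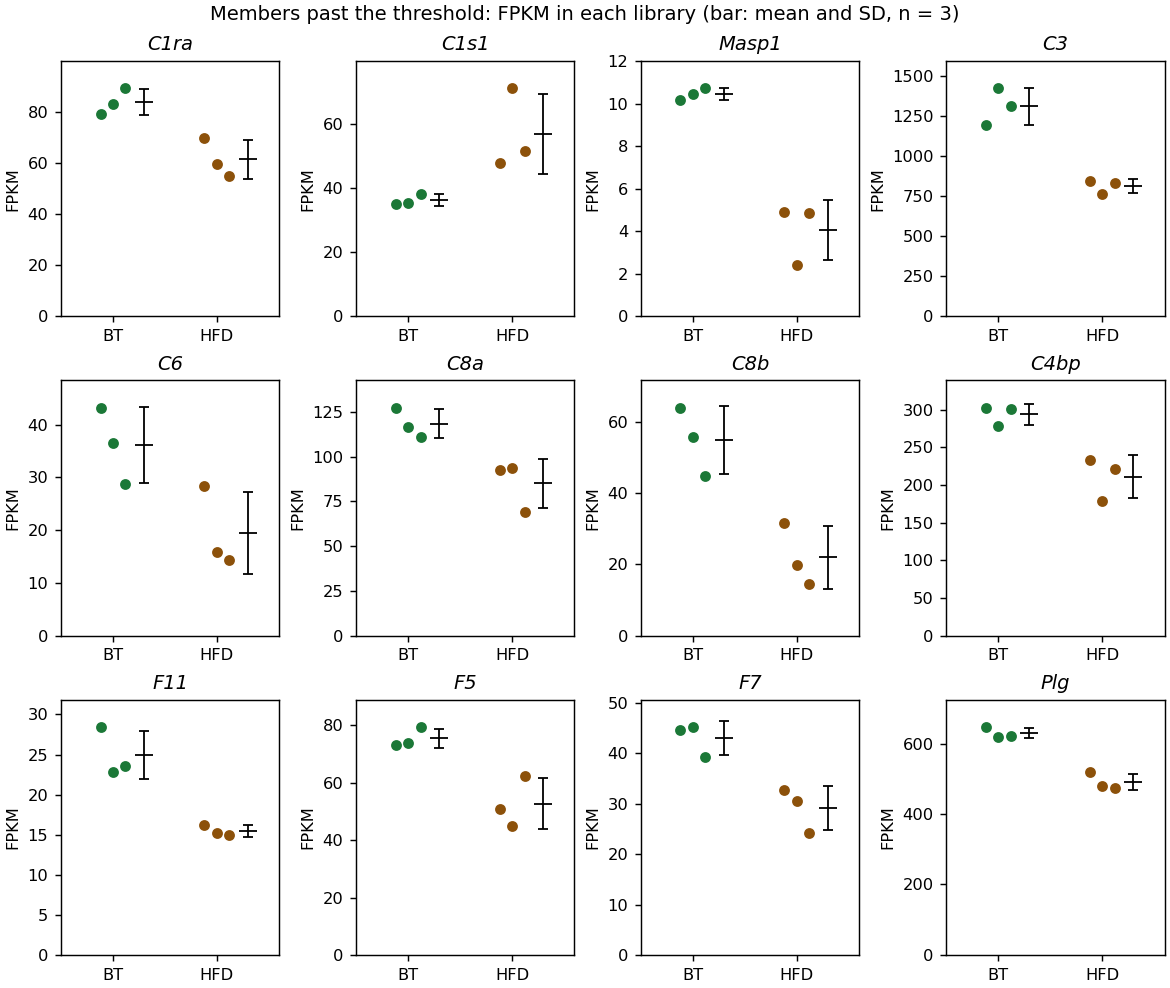
FPKM (y axis, from 0) of the 12 called members in each of the 3 BT and 3 HFD libraries, with mean and SD as bars. In all 12 panels the BT and HFD points do not overlap, and only C1s1 is lower with BT.

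Genes of factors known to bind such sequences in the liver were also measured, and Cebpb and Cebpa fell. A link between these factors and the changes of the members was not tested. Cebpb, an acute phase regulator, had 11.3, 11.6 and 11.1 FPKM with BT and 24.4, 25.5 and 36.6 FPKM with HFD (-1.25 ± 0.15, adjusted p = 0.00561). Cebpa, a hepatocyte differentiation factor, had 101, 99.0 and 94.4 FPKM with BT and 141, 137 and 130 FPKM with HFD (-0.46 ± 0.09, adjusted p = 0.0191). In neither gene did BT and HFD values overlap. Hnf4a overlapped (-0.06, adjusted p = 0.749). In the whole list of 16 hepatocyte factors and interleukin 6 signalling genes, 15 were tested, and of the interleukin 6 genes Stat3 came nearest to the threshold at 0.48 (adjusted p = 0.066). Cebpb passed in all 6 fits that left out a library, and Cebpa missed without any of the BT libraries (highest adjusted p 0.0821). Once length and GC trends were removed Cebpb (-0.62, adjusted p = 0.0758) and Cebpa (-0.32, adjusted p = 0.0723) did not pass.

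Outside the member list, 57 further genes of complement, coagulation and fibrinolysis were listed, 55 had a row, 37 could be tested, 6 rose and 3 fell (24.3% called, against 13.3% of all genes tested). Proz, the gene of protein Z, a cofactor in the inhibition of factor Xa, lies 4.24 kb from F10 and rose. It had 144, 152 and 138 FPKM with BT, against 96.1, 71.7 and 87.1 FPKM with HFD (0.77 ± 0.12, adjusted p = 0.0118). Hrg, histidine-rich glycoprotein, had 581, 586 and 585 FPKM with BT and 386, 411 and 406 FPKM with HFD (0.54, adjusted p = 0.0142). Thus in the row F7, F10 and Proz on chromosome 8 the outer genes rose and the middle one did not pass. C4a, a near-identical paralog of C4b, rose (50.2 ± 12.7 FPKM with BT, 28.9 ± 1.92 FPKM with HFD, SD, n = 3 each, 0.75, adjusted p = 0.0284), and since reads could be split between the paralogs both values are uncertain. Cpn2, a subunit of the carboxypeptidase that trims anaphylatoxins (0.52, adjusted p = 0.0157), and Mug1, a broad protease inhibitor with the close paralog Mug2 (0.75, adjusted p = 0.0411), also rose.

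Lower with BT were Cd59b, a membrane inhibitor of the attack pore (6.95 ± 1.37 FPKM with BT, 13.3 ± 2.14 FPKM with HFD, SD, n = 3 each, -0.85, adjusted p = 0.016), Colec11, a lectin that feeds the lectin pathway (-0.59, adjusted p = 0.031), and Tfpi2, a protease inhibitor (-0.38, adjusted p = 0.0402). Cd59a, the paralog of Cd59b, differed by 0.18 (adjusted p = 0.244). Without BT replicate 1 limma called 0 of the 37 (highest adjusted p of the 9 called genes 0.0567 to 0.142 over the fits that left out a library). Of the 37, 10 then had an unadjusted p under 0.05, against 12 with all libraries. Over all 10476 genes tested these numbers were 2445 and 3397, so the 37 were near the share of all genes. The macrophage-made C1qa, C1qb and C1qc differed by -0.20, -0.27 and -0.25 (adjusted p 0.32 to 0.512), and tissue factor, F3, by 0.48 (adjusted p = 0.0884). Of 4 vitamin K cycle genes none was called by limma, and 1, Vkorc1, had an unadjusted p under 0.05 (-0.33, adjusted p = 0.0897, 47.7% of its exon bases shared with Gm21974).

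**Figure D4:**
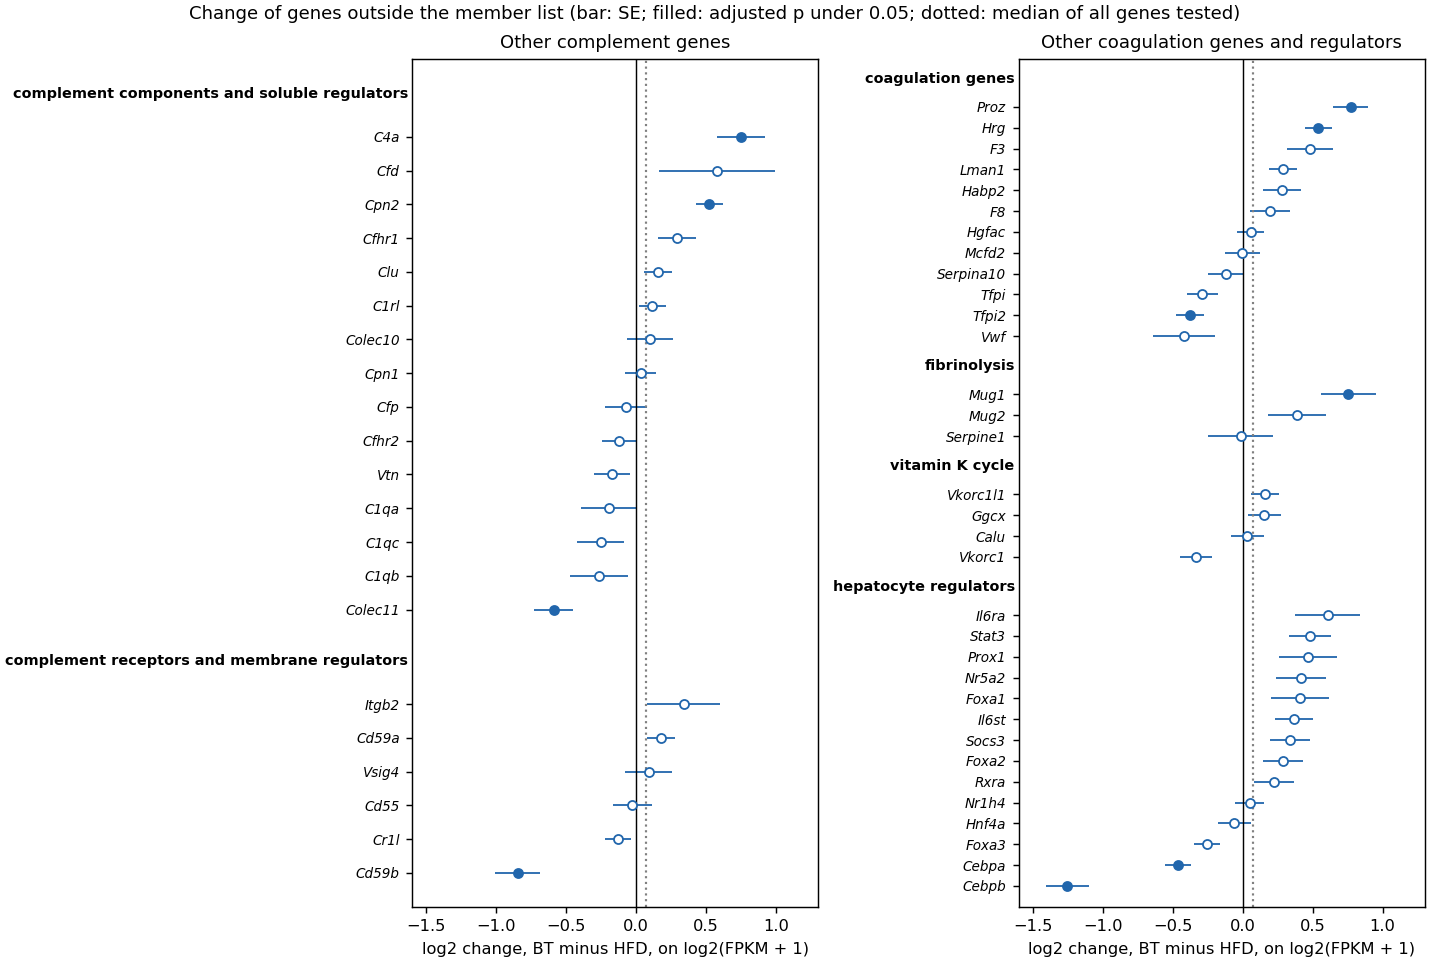
Log2 change (BT minus HFD, x axis) with SE for reported complement and coagulation genes outside the member list, vitamin K cycle genes and hepatocyte regulators. Filled points passed the threshold, with C4a, Cpn2, Proz, Hrg and Mug1 to the right of 0 and Colec11, Cd59b, Tfpi2, Cebpa and Cebpb to the left.

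Markers of other liver and blood cells were measured beside these changes. No marker of Kupffer cells (8 tested), sinusoidal endothelium (7), stellate cells (6), platelets (1), neutrophils (2) or red cells (5) was called, though Clec4g, Lrat and Ly6g are listed at 0 in all libraries. The summed level was 87.4 to 115 FPKM with BT and 87.9 to 118 FPKM with HFD for Kupffer cells, 29.0 to 35.1 FPKM with BT and 32.9 to 43.0 FPKM with HFD for endothelium, 75.5 to 94.2 FPKM with BT and 97.7 to 144 FPKM with HFD for stellate cells, 1.68 to 3.19 FPKM with BT and 4.25 to 5.58 FPKM with HFD for platelets, 2.59 to 14.5 FPKM with BT and 5.04 to 5.60 FPKM with HFD for neutrophils, and 119 to 418 FPKM with BT and 196 to 333 FPKM with HFD for red cells. Stellate and platelet sums were thus lower in BT libraries without overlap. Dcn made up most of the stellate sum (56.5 to 71.2 FPKM with BT, 74.2 to 109 FPKM with HFD). Reln, Des, Col1a1, Pdgfrb and Rgs5 overlapped between the diets. Of the platelet markers only Itga2b passed the filter on low values. Of the hepatocyte markers only Ttr was called, lower with BT, and their changes went in both directions. C1qa, F8 and F13a1 in these marker lists are themselves complement or coagulation genes. The part of these differences in the members' changes was not tested.

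Transcript length was compared with the changes. Over 10403 tested genes Pearson's r between log2 length and change was 0.408, and over the 39 members it was 0.26. These are descriptions across genes, which share libraries and are not independent. Of the 20 longer members (2587 to 7430 bases) 8 rose and 1 fell, and of the 19 shorter ones (1089 to 2503 bases) 3 rose. The median change was 0.17 in the longer and 0.18 in the shorter members. When each library's trend on length and GC content was removed, 7 members were higher and 1 was lower (3.84% and 5.29% of all genes were, 9.12% in all), and 6 of these were among the 12: Masp1, C3, C8b, F11, F7 and C1s1. C8b kept its change of 1.34 (adjusted p = 0.0289). Serping1 (0.51, adjusted p = 0.0232) and Serpind1 (0.34, adjusted p = 0.0462) now passed. C1ra, C6, C8a, C4bp, F5 and Plg no longer did, with changes of 0.26 (F5) to 0.80 (C6) and adjusted p of 0.0577 to 0.176. The change of C8g, one of the shortest members' transcripts at 1150 bases, was then -0.20 (adjusted p = 0.303).

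**Figure D5:**
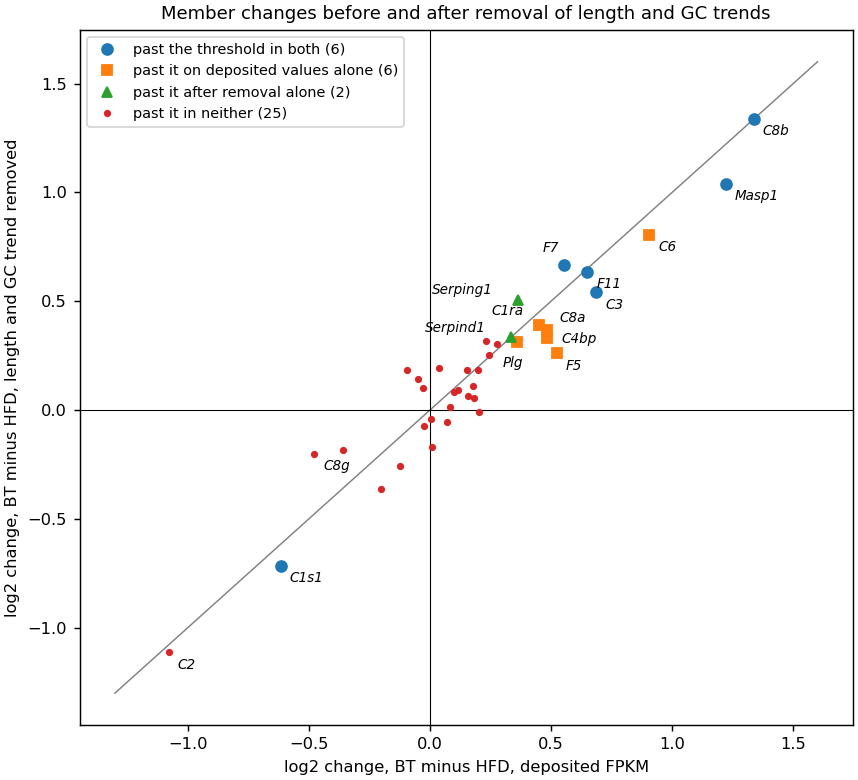
Log2 change (BT minus HFD) of the 39 members from deposited FPKM (x axis) and after removal of each library's length and GC trend (y axis), with the line of equality. Circles are the 6 genes called both ways, squares the 6 called on deposited values alone, triangles the 2 called after removal alone.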

How the data were processed

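TruSeq libraries were made from liver mRNA, per the labels' protocols. The authors deposited FPKM values in a single table, a column for each library. Tools listed in the submitters' processing notes, whose order and use are unstated, are Cufflinks 2.1.1, STAR 2.4.0 and CASAVA 1.8.2. Genome build, annotation and strand setting: not given in the sources used here. Sample titles gave the groups. GENCODE M21 (GRCm38) named 22671 of the 23474 identifiers and gave positions, lengths, GC contents and shared exon bases. A 0 in the table can be a failed estimate.

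Values were tested as log2(FPKM + 1) with limma 3.58.1 in R 4.3.3 (lmFit, eBayes with a variance trend), two-sided, for genes whose mean reached 1 FPKM, with Benjamini-Hochberg adjustment over all of them. The fit left 4 residual degrees of freedom. For single ratios, exact permutation of 3 libraries against 3 cannot give a p below 0.1. The fit was tested on simulated data. All members were named, and of the other lists each called gene, apart from 2 that are not reported here, and the 2 genes with the smallest p of each role, with further tested genes of those lists added after their values were seen. The members and lists were chosen with earlier results of these data known. Alternatives were another pseudocount (0.1), no filter and one of 5 FPKM, rescaling to a common sum, quantile normalization, median-of-ratios scaling, a fit without the variance trend, a replicate block, removal of length and GC trends (natural splines, 5 degrees of freedom) with and without the block, zeros as missing in genes averaging 10 FPKM or more, and leaving out each library. Depth was estimated from the FPKM value of a lone fragment in single-transcript genes. Figures used matplotlib 3.10.9 in Python 3.11.15.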

Additional observations from a re-analysis of the deposited data

How the results depend on the processing

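All 12 called members kept their sign in the 17 alternatives, many of which could not have changed it. No named gene reversed past the threshold. The class of inhibitors and fibrinolytic genes, which includes the protease gene Plg, is written as inhibitors in this section. Calls among all members, complement components, clotting factors, inhibitors, and other pathway genes numbered 12, 7, 3, 2 and 9. Without a filter on low values they were 0, 0, 0, 0 and 1 by limma, with 88 calls over all genes instead of 1398 (adjusted p of the 12 called members 0.0799 to 0.263). An unadjusted p under 0.05 was then found in 19 of the 39 members and in 3843 of all 23474 genes. The cause was not tested. Median-of-ratios scaling gave 6 members, 4 complement components and 0 inhibitors, quantile normalization 5 inhibitors, no variance trend 4 complement components and 1 inhibitor, and removal of length and GC trends 4 complement components and 5 other pathway genes. Leaving out 1 library gave 173 to 1536 calls over all genes, 0 to 13 members, 0 to 8 complement components, 0 to 3 clotting factors, 0 to 3 inhibitors and 0 to 8 other pathway genes, with the lowest of each range reached without BT replicate 1.

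Replicate numbers are shared between the diets by name only. Deviations of same-numbered libraries correlated at 0.163, 0.097 and 0.147, and each library correlated best with its own number, a hint from the data and not from the design. A replicate block gave 1808 calls over all genes, 859 higher and 949 lower, and 14 members, 12 of them the same genes, with C2 and C8g added. The block with length and GC trends removed gave 8 members and 1 inhibitor. FPKM carry no counts, so the depth estimate of 13800000 to 15800000 fragments is rough, and the precision rests on 3 libraries per diet.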
